A study of Rattus norvegicus with 6 samples.

Results

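Ccl2, Cxcl1, Cxcl2, Il6, Il1b and Ptgs2 are inflammatory response genes, chosen here by identifier as transcripts that stromal cells make under NF-kB control when they meet an implant surface. All 6 listed identifiers were present among the 19458 genes of the table, and all 6 were among the 11865 tested genes, whose mean over the libraries reached 1 FPKM (fragments per kilobase of gene model, scaled to the library's reads). The table holds rat Ensembl identifiers without symbols, and the names are those listed with the identifiers in the choice of genes; the reference gene table used here holds none of the identifiers, so the names were not looked up there. The study compared primary bone marrow mesenchymal stem cells of the rat, labelled wild type, on 2 titanium dioxide surfaces: nanotubes of 100 nm (3 libraries) and a smooth surface (3 libraries). Cells of both groups were grown in serum-containing medium and had been on the surface for 6 hours when RNA was taken. Whether the 3 libraries on each surface are separate cultures or animals is not stated in the labels; p-values therefore reflect variation among 6 libraries that could be purely technical. Leukocyte and stromal marker genes could not be read out, because no identifier other than those of the 6 genes is paired with a symbol here.

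NF-kB is a transcription factor held in the cytoplasm by inhibitor proteins and released to the nucleus when cells sense cytokines, microbial products or damage. Ccl2 encodes a chemokine that attracts monocytes, and Cxcl1 and Cxcl2 encode related chemokines that attract neutrophils. Il6 and Il1b encode the cytokines interleukin-6 and interleukin-1 beta, and Ptgs2 encodes cyclooxygenase-2, the inducible enzyme that commits arachidonic acid to prostaglandin synthesis. Bone marrow stromal cells are known to secrete Ccl2, Il6 and prostaglandins, while Il1b is best known as a product of monocytes and macrophages.

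Promoter sequences from RefSeq (rat build GRCr8) were matched by symbol for 5 of the 6 genes: Cxcl1, Cxcl2, Il6, Il1b and Ptgs2. The 150 bases upstream of each start are shown, 5′ to 3′ on the strand of the gene, because they show which of these genes carry a match to the NF-kB consensus close to the start; capitals mark the matches named after the sequences.
Cxcl1, chr14:17479322-17479471, minus strand: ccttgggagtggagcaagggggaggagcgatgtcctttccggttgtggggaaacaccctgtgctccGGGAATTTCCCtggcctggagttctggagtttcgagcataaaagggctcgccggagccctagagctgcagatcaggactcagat
Cxcl2, chr14:17467256-17467405, minus strand: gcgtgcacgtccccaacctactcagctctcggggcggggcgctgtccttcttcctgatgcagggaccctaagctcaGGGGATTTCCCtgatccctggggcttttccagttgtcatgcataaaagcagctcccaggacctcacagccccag
Il6, chr4:5894576-5894725, minus strand: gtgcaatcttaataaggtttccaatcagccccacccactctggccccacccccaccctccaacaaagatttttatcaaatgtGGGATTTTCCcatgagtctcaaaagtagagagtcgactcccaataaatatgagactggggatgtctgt
Il1b, chr3:137036582-137036731, minus strand: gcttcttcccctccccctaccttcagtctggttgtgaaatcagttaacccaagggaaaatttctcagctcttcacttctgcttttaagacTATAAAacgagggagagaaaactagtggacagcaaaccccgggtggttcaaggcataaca
Ptgs2, chr13:64713913-64714062, plus strand: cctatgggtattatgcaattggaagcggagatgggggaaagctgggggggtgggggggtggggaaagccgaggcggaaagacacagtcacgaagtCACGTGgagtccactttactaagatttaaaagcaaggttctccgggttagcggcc

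Matches were searched on both strands of a window of 300 bases, from 250 bases before the start to 50 after it. The NF-kB consensus was found in Cxcl1 from position -84 to -74 (2 overlapping matches), in Cxcl2 from -74 to -64 (3 overlapping matches) and in Il6 from -68 to -59, counted from the start of the gene. In all 3 it is the capitalised run. No match was found in the windows of Il1b and Ptgs2. Of the 33469 rat promoters searched, 4.18% held at least 1 match. The TATA box letters TATAAA were found in Il1b at -60 to -55 and occur in 14.2% of promoters. The E-box CACGTG was found in Ptgs2 at -55 to -50 and occurs in 6.42%. The cyclic AMP response element TGACGTCA was found in Il6 at -162 to -155, upstream of the stretch shown, and occurs in 1.83%. The AP-1 letters TGANTCA were found in none of the 5 windows and occur in 7.33% of promoters. A match describes the sequence and does not show that a factor was bound.

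Libraries held between 16299799 and 17624390 reads, as worked out from the deposited values. Nanotube library 3 and smooth library 2 were the most alike of the 15 pairs of libraries: 0.725% of tested genes differed by 2-fold or more between them on the log2(FPKM + 1) scale, against 0.919% to 8.23% in the other pairs. In 67.7% of tested genes the value of smooth library 3 fell between those of the other smooth libraries. None of the 6 inflammatory genes differed by 2-fold between nanotube library 3 and smooth library 2, as was the case for nearly all tested genes. The same held between smooth library 3 and either of these libraries. Smooth library 3 lay between the other smooth libraries for 6 of 6. Nanotube library 3 lay between the other nanotube libraries for 5 of the 6, against 23.9% of tested genes. Surface differences are therefore given with and without nanotube library 3, and also without both libraries numbered 3.

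Ccl2 (ENSRNOG00000007159) was the most abundant of the 6 genes in every library. On nanotubes it measured 797.6 FPKM in library 1, 1901 in library 2 and 1750 in library 3. On the smooth surface the same 3 numbers gave 1006, 1760 and 1398 FPKM. The groups overlapped, the lowest value being that of nanotube library 1 and the highest that of nanotube library 2. By FPKM, Ccl2 ranked between 22 and 72 among the genes of a library. It rested on 11738 to 27435 reads per library, so counting error was small beside the differences between libraries; in nanotube library 1 its 95% counting interval was 783.3 to 812.2 FPKM (exact Poisson, counting error only).

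Cxcl1 (ENSRNOG00000002802), the more abundant of the neutrophil chemokines, measured 323.8, 1037 and 474.0 FPKM in nanotube libraries 1, 2 and 3. In smooth libraries 1, 2 and 3 it measured 244.9, 371.9 and 319.1 FPKM. Nanotube libraries 2 and 3 lay above every smooth library, while nanotube library 1 lay between smooth libraries 3 and 2, so the groups overlapped. Nanotube library 2 stood far above the rest. Cxcl2 (ENSRNOG00000002792) was measured at a much lower level, 30.22, 45.01 and 19.48 FPKM on nanotubes and 5.322, 18.86 and 12.50 FPKM on the smooth surface. It was the single gene of the 6 whose groups did not overlap. The gap between the groups was small, however: nanotube library 3 rested on 354 reads with a counting interval of 17.51 to 21.62 FPKM, and smooth library 2 on 339 reads with 16.90 to 20.97 FPKM. These intervals overlap, so that the 2 libraries were not distinguishable at this depth. Cxcl1 and Cxcl2 are similar in sequence and lie close together on chromosome 14, and how reads shared by such genes were counted is not given in the sources used here.

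Il6 (ENSRNOG00000010278) measured 20.36, 143.4 and 71.13 FPKM on nanotubes and 55.30, 90.73 and 78.28 FPKM on the smooth surface. Both the lowest and the highest value came from nanotube libraries, 1 and 2, which differed 7.04-fold. Il1b (ENSRNOG00000004649) had the opposite arrangement on nanotubes, with 34.83, 4.393 and 14.37 FPKM. Its smooth values were 6.856, 18.41 and 13.15 FPKM. It was highest where Il6 was lowest, in nanotube library 1, and lowest where Il6 was highest, in nanotube library 2, a 7.93-fold difference within the nanotube group. Il1b rested on 106 to 857 reads per library. Ptgs2 (ENSRNOG00000002525) measured 84.51, 238.8 and 215.1 FPKM on nanotubes and 119.0, 236.8 and 184.2 FPKM on the smooth surface. The groups overlapped for all 3 of these genes.

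**Figure D1:**
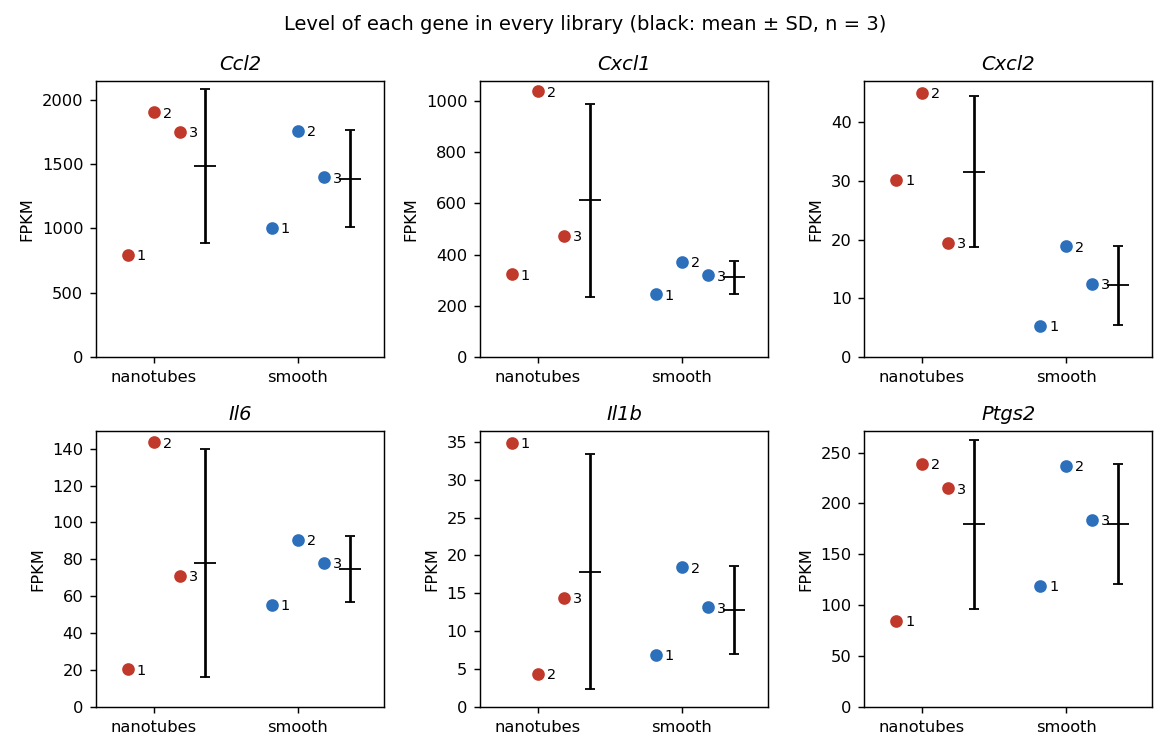
FPKM of each of the 6 genes in every library, on a linear axis from 0, with library numbers beside the points (red, nanotubes; blue, smooth) and the mean ± SD of the 3 libraries of a surface in black. Cxcl2 is the single gene whose nanotube points (19.48 to 45.01 FPKM) all lie above its smooth points (5.322 to 18.86 FPKM).

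None of the 6 genes passed the adjusted threshold between the surfaces in the fit across all tested genes (limma on log2(FPKM + 1), Benjamini-Hochberg adjustment over 11865 genes, threshold 0.05). In that fit 0% of all tested genes passed, and voom on whole reads also called 0. At an unadjusted limma p under 0.05 there was 1 of the 6, Cxcl2, against 6.10% of all tested genes (724 genes; 724 with voom), and 1.70% with the higher mean on nanotubes. Nanotube values all above smooth values were found for 1 of the 6, again Cxcl2, against 4.72% of tested genes, and nanotube values all below smooth values for 0 of the 6, against 7.49%. The median log2 fold change of the 6 genes, nanotube over smooth, was 0.09, beside -0.04 for all tested genes. Of the 6 fitted differences, 4 were above 0 and 2 below, none of them past the adjusted threshold. Fold changes here are differences of mean log2(FPKM + 1). They need not equal the ratio of the mean FPKM, and between any 2 libraries the added 1 shrinks the difference of low values.

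Cxcl2 had the largest of the 6 differences. Its mean was 31.57 ± 12.82 FPKM on nanotubes and 12.23 ± 6.771 FPKM on the smooth surface (SD, n = 3 libraries each). On the log2 scale the nanotube mean was higher by 1.37 (SE 0.47, 95% interval 0.26 to 2.49). The limma unadjusted p was 0.0231 (place 288 among the tested genes) and the adjusted p 0.753. A two-sided exact permutation test over the 20 assignments of libraries gave p = 0.1, the smallest it can give with 3 against 3. Nanotube library 3 lowered the difference, which was 1.67 (SE 0.50) without it, at a limma adjusted p of 0.180; in that fit 18.5% of all tested genes were at an unadjusted p under 0.05. Smooth library 1, at 5.322 FPKM, raised it, and without that library it was 0.92 (SE 0.36). Without both libraries numbered 3 it was 1.76 (SE 0.58, limma adjusted p 0.539). The 95% interval included 0 without nanotube library 1 (-0.048 to 2.777) and without nanotube library 2 (-0.164 to 2.334).

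Cxcl1 averaged 611.6 ± 376.0 FPKM on nanotubes and 312.0 ± 63.83 FPKM on the smooth surface (SD, n = 3 libraries each). On the log2 scale the nanotube mean was higher by 0.82 (SE 0.42, 95% interval -0.18 to 1.82). It did not pass the threshold, with a limma unadjusted p of 0.0944, an adjusted p of 0.753 and an exact permutation p of 0.2. The value rested largely on nanotube library 2, without which it was 0.35 (SE 0.25). It was 0.91 (SE 0.50) without nanotube library 3 and 1.19 (SE 0.37) without nanotube library 1, where the limma unadjusted p was 0.0195 and the adjusted p 0.9996.

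For the other 4 genes the means of the surfaces were closer together than the spread between libraries. Ccl2 averaged 1483 ± 598.1 FPKM on nanotubes and 1388 ± 377.2 FPKM on the smooth surface, a log2 fold change of 0.03 (SE 0.38, interval -0.87 to 0.93). Ptgs2 averaged 179.5 ± 83.09 and 180.0 ± 59.02 FPKM, a log2 fold change of -0.08 (SE 0.44, interval -1.14 to 0.97). Il6 averaged 78.29 ± 61.82 and 74.77 ± 17.97 FPKM, and its log2 fold change was -0.29 (SE 0.65, interval -1.85 to 1.27). Its mean FPKM was higher on nanotubes and its mean on the log scale lower. Il1b averaged 17.86 ± 15.52 and 12.80 ± 5.784 FPKM, a log2 fold change of 0.15 (SE 0.69, interval -1.49 to 1.80). The limma adjusted p of these 4 genes lay between 0.940 and 0.988 and the exact permutation p between 0.8 and 1. The intervals of Il6 and Il1b reach beyond a 2-fold difference in either direction, and that of Ptgs2 beyond a 2-fold lower level on nanotubes. The interval of Ccl2, 0.548-fold to 1.91-fold, stops only just short of 2-fold both ways. Equal levels on both surfaces were thus not established for any of these 4 genes.

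The sign of these 4 differences depended on single libraries. Leaving out nanotube library 1 moved Il6 to 0.46, Ptgs2 to 0.39, Ccl2 to 0.43 and Il1b to -0.51. Leaving out nanotube library 2 moved Il6 to -0.92, Ptgs2 to -0.36, Ccl2 to -0.19 and Il1b to 0.86. Without nanotube library 3 the values were -0.42 for Il6, -0.28 for Ptgs2, -0.14 for Ccl2 and 0.10 for Il1b. Without smooth library 1 they were -0.49, -0.35, -0.18 and -0.20 in the same order, and without smooth library 2 -0.14, 0.14, 0.22 and 0.45. Without smooth library 3 they were -0.25, -0.04, 0.06 and 0.22.

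**Figure D2:**
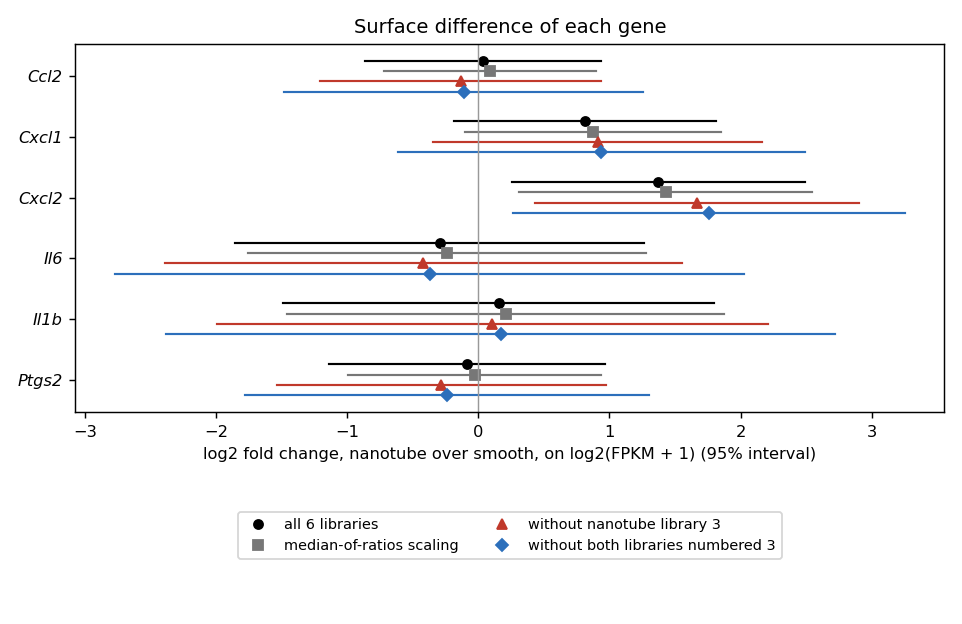
Log2 fold change of nanotube over smooth on the log2(FPKM + 1) scale for each gene, with 95% limma intervals, for all 6 libraries, after median-of-ratios scaling, without nanotube library 3 and without both libraries numbered 3. The intervals of Cxcl2 lie above 0 under the 4 settings drawn, before adjustment, and those of the other 5 genes include 0. The fits without nanotube library 1 or 2 are not drawn. In these the Cxcl2 interval included 0 (-0.048 to 2.777 and -0.164 to 2.334). The Cxcl1 interval lay above 0 without nanotube library 1 (0.275 to 2.098), before adjustment.

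The 6 genes varied more between libraries of the same surface than most genes did. On the log2(FPKM + 1) scale, the SD among nanotube libraries was 1.40 for Il6 and 1.37 for Il1b, above 99.0% and 98.9% of tested genes, whose median was 0.21. It was 0.86 for Cxcl1, 0.82 for Ptgs2, 0.69 for Ccl2 and 0.58 for Cxcl2, above 91.4% to 96.4% of tested genes. Among smooth libraries Cxcl2 had the largest SD of the 6, 0.84, above 98.7% of tested genes, whose median was 0.15. Cxcl1 had the smallest, 0.30, still above 83.1%. The highest library exceeded the lowest 8.46-fold for Cxcl2, 7.93-fold for Il1b, 7.04-fold for Il6, 4.24-fold for Cxcl1, 2.83-fold for Ptgs2 and 2.38-fold for Ccl2.

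**Figure D3:**
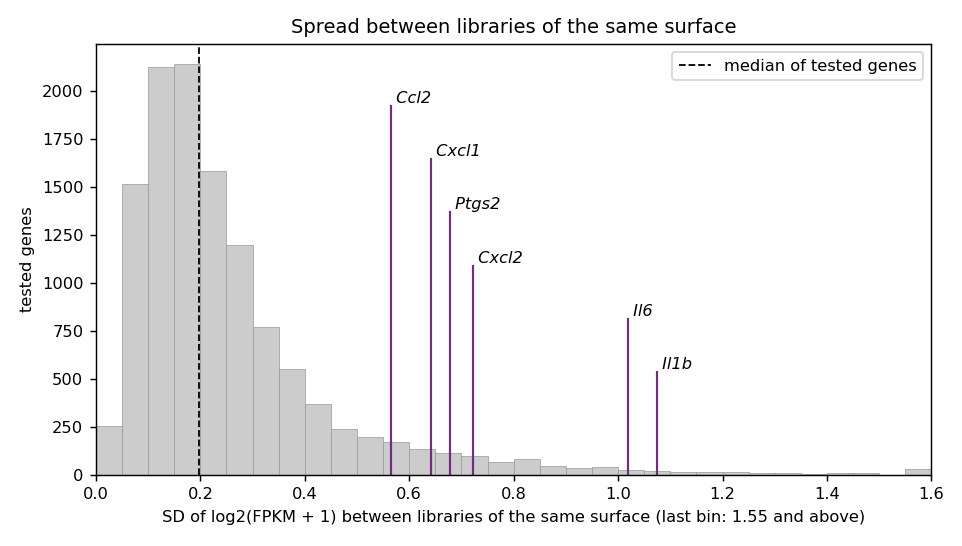
Histogram of the SD of log2(FPKM + 1) between libraries of the same surface, pooled over both surfaces, for the 11865 tested genes, with the 6 genes as vertical lines of arbitrary height and the median of tested genes (0.20) as a dashed line. The 6 genes lie between 0.57 (Ccl2) and 1.07 (Il1b), all in the right tail.

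Ccl2 and Ptgs2, the monocyte chemokine and the prostaglandin enzyme, ranked the 6 libraries identically. From low to high the order was nanotube 1, smooth 1, smooth 3, nanotube 3, smooth 2 and nanotube 2, so both extremes were nanotube libraries. Among the other tested genes, 76 (0.641%) had that same order as Ccl2. Il6 had the same order except that nanotube 3 and smooth 3 changed places. The number of Ptgs2 FPKM per Ccl2 FPKM stayed between 0.106 and 0.135 over the 6 libraries, a 1.27-fold range, although Ccl2 itself ranged over 2.38-fold. Such a ratio within a library does not depend on the library total.

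Over the 15 pairs of the 6 genes, Pearson and Spearman correlations of log2(FPKM + 1) were computed across the 6 libraries, with exact permutation over the 720 pairings and Benjamini-Hochberg adjustment over the 15 pairs. Ccl2 and Ptgs2 gave r = 0.993 (exact permutation p = 0.00139, the smallest possible, adjusted 0.0208) and rho = 1 (exact permutation p = 0.00278, adjusted 0.0417). Without the 2 libraries farthest from the Ccl2 median, nanotube 1 and smooth 1, r was 0.95 over 4 libraries. Il6 and Ptgs2 gave r = 0.922 (exact permutation p = 0.00556, adjusted 0.0278), and rho = 0.943 (exact permutation p = 0.0167, adjusted 0.0833). Without the 2 libraries farthest from the Il6 median, nanotube 1 and nanotube 2, their r was 0.904. Ccl2 and Il6 gave r = 0.907 (exact permutation p = 0.00417, adjusted 0.0278) and rho = 0.943 (exact permutation p = 0.0167, adjusted 0.0833). Without the 2 libraries farthest from the Ccl2 median, nanotube 1 and smooth 1, that r was 0.593. Because other libraries were left out for Il6 and Ptgs2, 0.904 and 0.593 do not show which relation is the firmer. The other 12 pairs did not pass the adjustment, with adjusted Pearson p from exact permutation of 0.276 or more. These tests take the libraries as independent, which the labels do not state; smooth library 3 lay between smooth libraries 1 and 2 for all 6 genes.

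High correlations over 6 libraries were common in this table. With Ccl2, 438 other tested genes (3.69%) reached r of at least 0.9, Ptgs2 standing at place 6 and Il6 at place 386 among 11864. With Ptgs2, 482 (4.06%) reached it, Ccl2 standing at place 10 and Il6 at place 341. Outside the 6 genes and at a mean of at least 5 FPKM, the genes most like Ccl2 were ENSRNOG00000013552, with r = 0.999, and ENSRNOG00000018294, with r = 0.996, over the 6 libraries. ENSRNOG00000018294 measured 323.2, 790.1 and 676.6 FPKM on nanotubes and 413.4, 742.7 and 581.0 FPKM on the smooth surface, in the order of the library numbers. Neither identifier is paired with a symbol in the sources used here.

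In nanotube library 1 Il1b was above its own mean over the libraries, as was Cxcl2, while the remaining genes were below theirs. Only in nanotube library 2 did Il1b depart from all the other genes, being below its mean where they were above theirs. The number of Il1b FPKM per Il6 FPKM was 1.71 in nanotube library 1 and 0.0306 in nanotube library 2, while the other 4 libraries lay between 0.124 and 0.203. Nanotube library 1 was therefore the single library with more Il1b than Il6. Il6 and Il1b gave r = -0.743 over all 6 libraries (exact permutation p = 0.0944, adjusted 0.283; rho = -0.486, exact permutation p = 0.356). Without nanotube libraries 1 and 2 the sign turned, with r = 0.954 over the 4 libraries left. The negative value rests on those libraries.

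**Figure D4:**
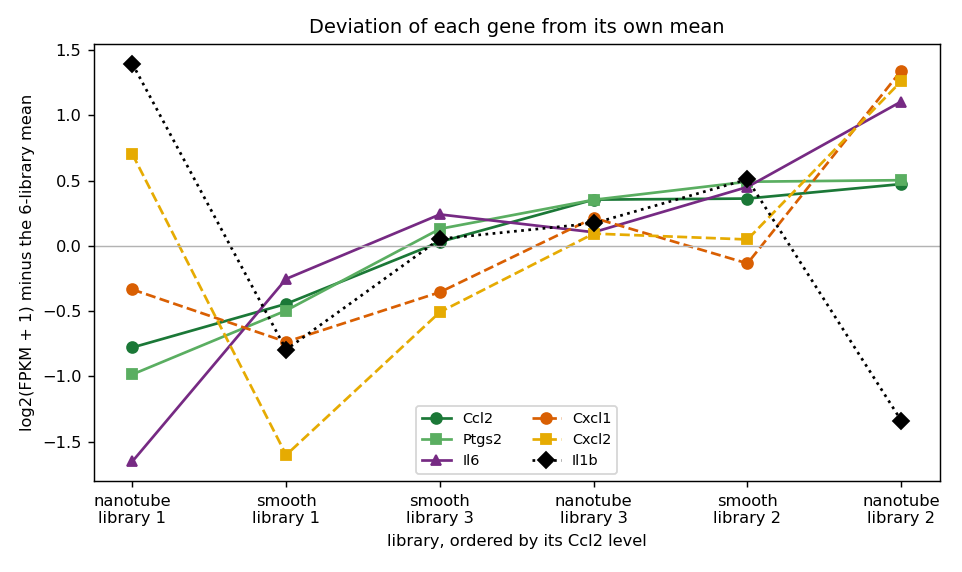
Deviation of each gene from its own mean over the 6 libraries, in log2(FPKM + 1) units, with libraries ordered by their Ccl2 level. Ccl2 and Ptgs2 run together from nanotube library 1 to nanotube library 2. Il6 follows the same order apart from nanotube 3 and smooth 3. Il1b has its highest value in nanotube library 1 and its lowest in nanotube library 2. Cxcl2 also lies above its mean in nanotube library 1.

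Cxcl1 and Cxcl2 shared the low value in smooth library 1 and the high value in nanotube library 2, with r = 0.785 (exact permutation p = 0.0736, adjusted 0.276; rho = 0.829, exact permutation p = 0.0583). Without these 2 libraries r was 0.026. The ratio of Cxcl1 to Cxcl2 in FPKM ran from 10.7 in nanotube library 1 to 46.0 in smooth library 1. Set against Ccl2 in the same library, both neutrophil chemokines had higher ratios in the 3 nanotube libraries than in the smooth libraries, as had 0.396% of the other 11864 tested genes (47 genes, these chemokines included). Cxcl1 per Ccl2 was 0.406, 0.546 and 0.271 on nanotubes, in the order of the library numbers, and 0.244, 0.211 and 0.228 on the smooth surface. Cxcl2 per Ccl2 was 0.0379, 0.0237 and 0.0111 on nanotubes and 0.00529, 0.0107 and 0.00895 on the smooth surface. Nanotube library 3 stood nearest to the smooth libraries in both ratios. Its Cxcl2 per Ccl2 of 0.0111 and the 0.0107 of smooth library 2 rest on the 354 and 339 Cxcl2 reads that were not distinguishable by their counting intervals. The ratios were formed after the values had been seen and carry no test.

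**Figure D5:**
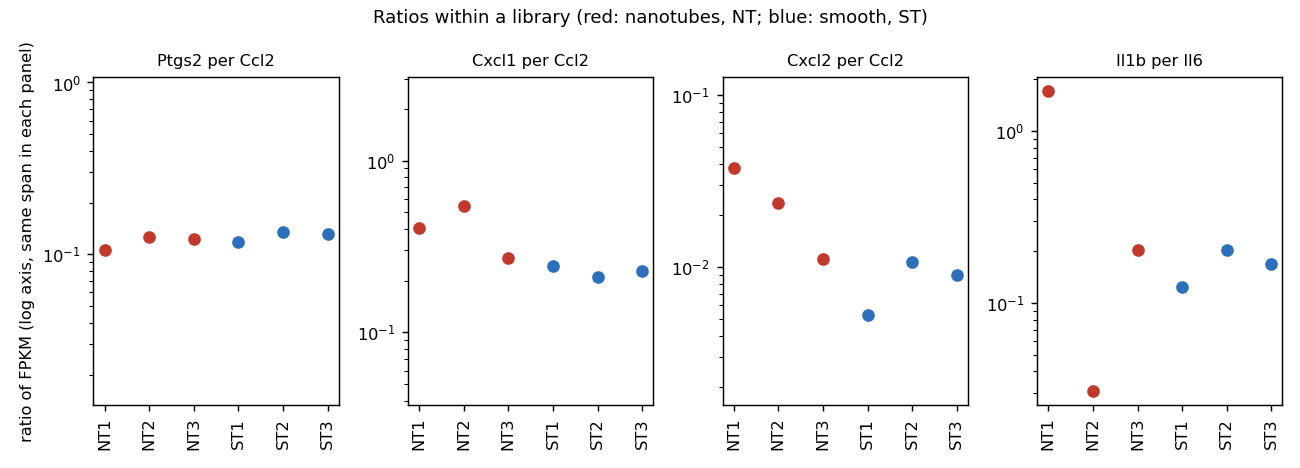
Ratio of the FPKM of 2 genes within each library, on log axes that span the same fold in each panel (red, nanotubes, NT; blue, smooth, ST). Ptgs2 per Ccl2 is nearly level (0.106 to 0.135), Cxcl1 and Cxcl2 per Ccl2 are higher in the 3 nanotube libraries (as for 0.396% of other tested genes, and by only 0.0111 against 0.0107 for Cxcl2 in nanotube library 3 and smooth library 2), and Il1b per Il6 is highest in nanotube library 1 (1.71) and lowest in nanotube library 2 (0.0306).

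The libraries with the lowest Ccl2 and Ptgs2, nanotube 1 and smooth 1, were also those in which the 10 most abundant genes took the largest share of reads, 13.61% and 11.38% against 7.97% to 10.05% in the other 4. After scaling by the median of ratios, Ccl2 was 859.7 and 1030 FPKM in these libraries and 1354 to 1961 FPKM in the others. In bulk RNA, a change in the number of cells that make a transcript and a change in transcript per cell cannot be told apart.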

How the data were processed

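The authors deposited 1 table of FPKM values, with 1 column per library. Per the submitters' processing notes, HISAT2 2.1.0, Bowtie 1.0.1 and HTSeq were used, in roles left unnamed, and the notes also give the mouse builds mm10 and GRCm38 although the identifiers are rat genes. No source used here gives the rat annotation, the strand setting or the treatment of shared reads. RNA was extracted with Trizol and libraries were made with a NEBNext Ultra kit, per the labels' protocols.

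The members and lists were chosen with earlier results of these data known. Limma 3.58.1 in R 4.3.3 was fitted with a mean-variance trend to log2(FPKM + 1) of the 11865 genes averaging at least 1 FPKM, with surface as the single term. Whole read counts were recovered: ratios between columns gave the library totals, and 100% of 116748 values came out whole within a relative tolerance of 1e-09. Totals were 16299799 to 17624390 reads, and counting intervals cover counting error alone. The recovered gene-model lengths of the 6 genes, 835 to 4373 bases, were all below the RefSeq gene spans of the named genes. Both steps were also run on simulated data, whose outcome is not given here and on which no result rests. For the fit, the simulated libraries were drawn independently, without the likeness between nanotube library 3 and smooth library 2. Groups are the surfaces of the labels. Numbers 1 and 2 come from the titles, and 3 is a name taken from the table's columns, matched to the remaining title. Named genes were the 6 members and, as the most similar genes, 2 identifiers for Ccl2, the first listed, because no symbols were available. Pathway lists (NF-kB targets, other cytokines, receptors, prostaglandin synthesis, negative regulators) and cell type markers were not analysed here, since they work on symbols. Alternatives were other pseudocounts, filters and scaling, voom on whole reads, libraries left out and replicate blocks.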

Additional observations from a re-analysis of the deposited data

How the results depend on the processing

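None of the 6 genes passed the adjusted threshold under any of the 15 alternatives to the fit with all 6 libraries. Of the 90 resulting values, 80 kept their direction and 10 turned it, all of them by leaving libraries out or by the fit on the 4 numbered libraries. Leaving out 1 library gave log2 fold changes from -0.19 to 0.43 for Ccl2, 0.35 to 1.19 for Cxcl1, 0.92 to 1.74 for Cxcl2, -0.92 to 0.46 for Il6, -0.51 to 0.86 for Il1b and -0.36 to 0.39 for Ptgs2. Ccl2 was -0.11 with the numbered libraries alone. Pseudocounts, filters, scaling and voom turned none of the 6 directions. Cxcl2 was between 1.11 and 1.46 under these, and its unadjusted limma p was under 0.05 in 13 of the 15 alternatives, the exceptions being those without nanotube library 1 (0.0559) and 2 (0.0770); its adjusted p ranged from 0.180 to 0.9998. The unadjusted limma p of Cxcl1 was under 0.05 in 3 of the 15: without nanotube library 1 (0.0195) and with the replicate block on 4 (0.0450) or 6 libraries (0.0193), with adjusted p from 0.393 to 0.9998 over all 15.

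Over all tested genes 0 were called, and 0 to 1 with 1 library left out, the 1 being called without nanotube library 3 and not among the 6. An unadjusted p under 0.05 was reached by 724 genes with all libraries. Nanotube libraries 1, 2 and 3 left out in turn gave 411, 378 and 2200 such genes, and smooth libraries 1, 2 and 3 gave 423, 532 and 237. Higher genes made 27.9% of the 724 as deposited, and 41.0% of the 922 genes, a different set, that reached this p after median-of-ratios scaling. Over all tested genes, deviations from the group means correlated at 0.32, -0.21 and 0.06 for numbers 1, 2 and 3. These correlations, taken over all tested genes, do not settle whether equal numbers belong together. The libraries were treated as unpaired because the labels name no pairing. Ccl2, Cxcl1, Il6 and Ptgs2 rose from library 1 to 3 to 2 on both surfaces. The share of tested genes with that order on both was not computed. Library 3 lay between the others in 67.7% of tested genes on the smooth surface and in 23.9% on nanotubes. Ccl2, Il6 and Ptgs2 were correlated with one another, so these genes are not separate observations. With the replicate block on all 6 libraries, the SE was 0.17 for Ccl2, 0.24 for Cxcl1, 0.39 for Il6 and 0.17 for Ptgs2. Unpaired it was 0.38, 0.42, 0.65 and 0.44 in that order. For Cxcl2 it was 0.33 with the block and 0.47 unpaired, and for Il1b 0.75 and 0.69. The labels do not state that equal numbers belong together. The replicate block on the 4 numbered libraries gave -0.11 for Ccl2 and 1.76 for Cxcl2 (limma adjusted p 0.416), with 1356 genes below the unadjusted threshold, and the replicate block on all 6 gave 1.37 for Cxcl2 (limma adjusted p 0.703). Counting error limits Cxcl2 and Il1b, with as few as 93 and 106 reads in a library.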
